A study of Homo sapiens with 6 samples.

Results

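The genes described here encode collagens, laminins and 14 further matrix proteins, 67 of the 16623 genes in the files. A gene was taken if its symbol had the form of a collagen chain (41 genes) or of a laminin chain (12 genes), or if it was fibronectin (FN1), SPARC, thrombospondin-1 or -2 (THBS1, THBS2), tenascin-C (TNC), fibrillin-1 or -2 (FBN1, FBN2), nidogen-1 or -2 (NID1, NID2), lumican (LUM), biglycan (BGN), versican (VCAN), perlecan (HSPG2) or agrin (AGRN). In RefSeq, 70 genes fit this description, and COL23A1, COL6A5 and COL9A1 were not analysed here. MDA-MB-231 is an established triple-negative breast cancer line that was grown as an attached layer in medium with serum. Cells received either DMSO, the solvent, or 100 nM or 200 nM PCI-24781, an inhibitor of histone deacetylases (HDACs), for 24 h or 48 h. That gave 6 libraries, 1 per condition, all from 1 cell line, so a difference between single libraries has no replicate behind it and was given no test. The comparisons ask which matrix genes differed after treatment from DMSO of the same time, and which differed between the DMSO libraries.

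The extracellular matrix is built from secreted proteins that assemble outside the cell. Collagen chains wind into trimers that form fibrils, networks or transmembrane proteins, and laminins are trimers of an alpha, a beta and a gamma chain that form, with collagen IV, nidogens and perlecan, the sheet called the basement membrane. Matricellular proteins such as tenascin-C and the thrombospondins have little structural role and change how cells attach to the matrix. Carcinoma cells secrete part of their own matrix and attach to it through integrins, while fibroblasts make most of the fibrillar collagen of a tumour.

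Expression is given as FPKM, the number of fragments divided by transcript length and by sequencing depth, so levels are per length and can be compared between genes. Unless stated otherwise, 6 values in a row are FPKM in DMSO, 100 nM and 200 nM at 24 h, followed by DMSO, 100 nM and 200 nM at 48 h. A difference is that of log2(FPKM + 1), a scale that understates the change of low genes, and a gene was tested for a call when at least 1 library of the comparison reached FPKM 1. It was called higher or lower at a difference of at least 2-fold on that scale. Depth, inferred from the steps between low values, was about 16400000 to 19000000 reads per library, at which 3 reads on a 2 kb transcript correspond to an FPKM of 0.081 to 0.0938. Between 1130 and 1708 genes were listed at 0, which can be a failed estimate. The line's markers VIM, CD44, AXL, MSN and EGFR ranged from 35.1 to 2053 FPKM, whereas ESR1, PGR and CDH1 stayed at or below 0.39 and EPCAM, an epithelial marker, ranged from 2.26 to 4.70. GRHL2, also listed as low in this line, was not analysed here.

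The libraries labelled DMSO 48 h and 100 nM 48 h stood out by the order of their values. Of 11893 genes that reached FPKM 1 somewhere, 32.3% increased strictly from DMSO through 100 nM to 200 nM at 24 h and 30.4% decreased in that order. At 48 h, 10.3% increased and 11.3% decreased with dose. In 29.8% the library labelled 100 nM 48 h was lowest, DMSO 48 h intermediate and 200 nM 48 h highest, and in 25.3% this order was inverted. Of the 31 matrix genes that reached FPKM 1, 13 (41.9%) followed the first of these orders at 48 h. Among them were TNC, THBS1, FN1, LAMB3, COL1A1, COL4A1 and COL8A1. The inverted order held for 7 (22.6%), while 4 (12.9%) increased with dose and 1 (3.23%) decreased. At 24 h, 11 (35.5%) increased with dose and 3 (9.68%) decreased. These orders were counted after the values were seen. An exchange of the labels DMSO 48 h and 100 nM 48 h, a property of 1 of the libraries and a response of the cells cannot be told apart here, so directions at 48 h are those of the libraries as labelled.

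Of the 67 genes, 31 reached FPKM 1 in at least 1 library, 14 had at least 10 in every library, and 36 stayed below 1 in every library. FN1, the integrin-binding glycoprotein that cells assemble into fibrils, had the highest mean at 77.4 FPKM. The transmembrane collagen gene COL13A1 followed with 61.4, ahead of the laminin gamma-1 gene LAMC1 with 61.1. Further down were LAMB3 at 48.96, LAMB2 at 43.3, AGRN at 38.6, LAMB1 at 31.5, COL4A2 at 27.7, THBS1 at 24.7, LAMA5 at 22.3, LAMA3 at 15.5 and HSPG2 at 15.1. The summed FPKM of the 67 genes was 435, 541, 540.3, 645, 612 and 706. Each 48 h library was thus above each 24 h library. The sum amounted to 0.103% of all FPKM in DMSO 24 h and to 0.168% at 200 nM 48 h, the lowest and the highest share. Since cells were sequenced in bulk, fewer cells of a type and less RNA per cell cannot be told apart.

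**Figure D1:**
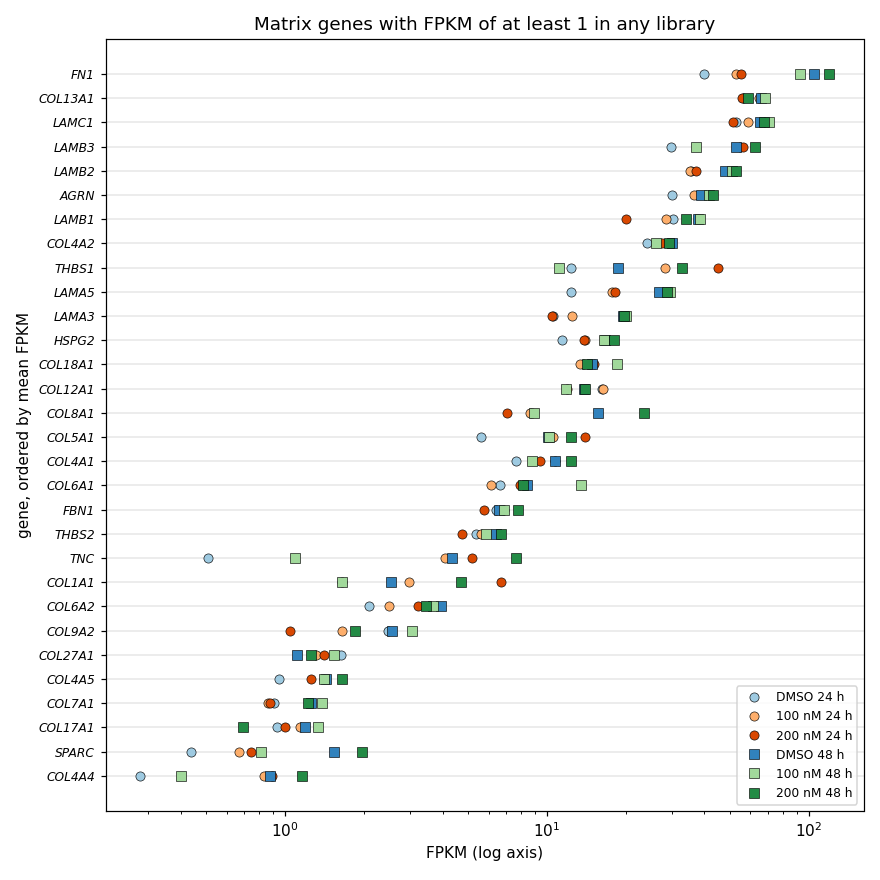
FPKM (log axis) of 30 matrix genes that reached FPKM 1, 1 point per library, with circles for 24 h and squares for 48 h. Most genes span less than 2-fold, while TNC runs from 0.51 to 7.63 FPKM and its DMSO 24 h and 100 nM 48 h points lie apart on the left.

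At 24 h, 28 matrix genes were tested at each dose. TNC and THBS1 were higher at 100 nM than in DMSO, 2 of 28 (7.14%) against 1.35% of all 11475 genes, and 0 of 28 were lower, against 0.131% of all genes. At 200 nM, TNC, THBS1, COL1A1 and COL5A1 were higher, 4 of 28 (14.3%) against 4.49% of all 11660 genes, and 0 were lower, against 1.48%. The median difference of the tested matrix genes was 0.21 at 100 nM and 0.20 at 200 nM, beside 0.01 for all genes at both doses. At 100 nM, 21 of 28 had a difference above 0 (75%, against 51.6% of all genes), and at 200 nM 18 of 28 (64.3%, against 51.2%). Both doses were read against the same DMSO 24 h library. With DMSO 48 h as the reference the medians were -0.15 and -0.21. At 100 nM and 200 nM, 0 and 2 matrix genes were then higher, and 0 and 1 were lower. The 2 that stayed higher at 200 nM were THBS1 and COL1A1. Shares and medians of all genes against that reference were not calculated.

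At 48 h, none of 30 matrix genes was higher at 100 nM than in DMSO, beside 0.0608% of 11514 genes, and TNC alone was lower, 1 of 30 (3.33%), beside 0.408%. At 200 nM, 0 of 31 were higher and 0 were lower, beside 0.206% and 0.06% of 11665 genes. The median difference was 0.00 at 100 nM and 0.10 at 200 nM, and that of all genes was -0.01 and 0.01. At 100 nM 15 of 30 were above 0 (50%, against 47.2% of all genes), and at 200 nM 21 of 31 (67.7%, against 51%). Between the DMSO libraries, 4 of 30 matrix genes (13.3%), among them TNC, FN1 and LAMA5, were higher at 48 h than at 24 h, beside 2.49% of 11490 genes, and 0 were lower, beside 0.131%. The median was 0.39, against -0.00 for all genes, and 28 of 30 matrix genes (93.3%) were above 0, against 49.6% of all genes. Only COL27A1, at -0.32, and COL12A1, at -0.22, lay below 0. Time in culture and any other difference between these libraries cannot be told apart.

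The 6 libraries also allow a fit of dose and time as separate terms, which treats the doses as repeats of the time difference and the times as repeats of the dose difference, with 2 residual degrees of freedom. It was added after the values were seen, and it assumes that a dose acts alike at both times. A dose term is the mean of the differences at the 2 times. At 100 nM these had opposite signs for some genes, TNC and THBS1 among them, and so cancel in part. The doubt about the labels at 48 h enters the fit too. By limma with Benjamini-Hochberg adjustment over 11893 genes, 0 of 31 matrix genes passed an adjusted p of 0.05 for time. Of all genes, 0.16% passed as higher and 0% as lower at 48 h. An unadjusted limma p under 0.05 for time was found for 12 of 31 matrix genes and 1810 of all 11893 genes. For 100 nM, 0 of 31 passed the adjusted limit, beside 0.00841% of all genes higher and 0% lower. At an unadjusted limma p under 0.05 there were 0 of 31, beside 44 of 11893. For 200 nM, 0 of 31 passed the adjusted limit, beside 0% of all genes in both directions. At an unadjusted limma p under 0.05 there were 4 of 31, beside 1677 of 11893. FN1 came closest, 1.09 ± 0.14 (SE) higher at 48 h on the log2 scale with a limma adjusted p of 0.0696, followed by LAMA3 (0.77 ± 0.11, adjusted p of 0.0767) and LAMA5 (0.80 ± 0.13, adjusted p of 0.0956). At 200 nM, COL1A1 differed from DMSO by 1.11 ± 0.25 and THBS1 by 1.28 ± 0.39, both with a limma adjusted p of 0.351. COL5A1 differed by 0.72 ± 0.24 and COL9A2 by -0.54 ± 0.18, also with a limma adjusted p of 0.351. These 4 genes were the ones under an unadjusted limma p of 0.05 at 200 nM. TNC, not among them, differed by 1.36 ± 0.65 at 200 nM, with a limma adjusted p of 0.373.

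**Figure D2:**
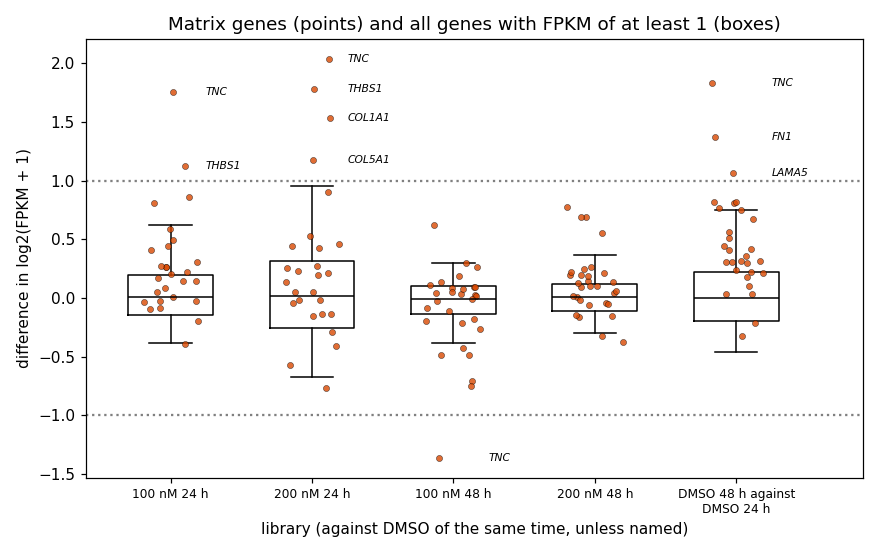
Difference in log2(FPKM + 1) in 5 comparisons. Points are matrix genes tested, boxes span the quartiles of all genes tested with the median as a line, whiskers span the 5th to the 95th percentile, and dotted lines mark 2-fold; the matrix genes' median is 0.39 in the DMSO comparison, where that of all genes is -0.00.

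Of the 67 genes, 7 were called in at least 1 comparison, and the DNA before the start is shown first for 5 of these, those with a window in the table used, because their differences are described next. Each sequence is the 250 bases upstream of the gene's start in RefSeq on GRCh38.p14, read 5′ to 3′ on the gene's strand, and capitals mark matches to GGGCGG, the core of a GC box, or to CCAAT, on either strand (CCGCCC and ATTGG). The windows are those of TNC (chr9:115118158-115118407, minus strand), THBS1 (chr15:39580829-39581078, plus strand), COL5A1 (chr9:134641553-134641802, plus strand), FN1 (chr2:215436069-215436318, minus strand) and LAMA5 (chr20:62367313-62367562, minus strand).
TNC: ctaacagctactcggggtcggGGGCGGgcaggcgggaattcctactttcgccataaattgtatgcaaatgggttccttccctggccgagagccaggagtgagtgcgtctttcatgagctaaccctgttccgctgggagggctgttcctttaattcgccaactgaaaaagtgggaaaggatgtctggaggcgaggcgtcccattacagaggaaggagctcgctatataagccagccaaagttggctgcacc
THBS1: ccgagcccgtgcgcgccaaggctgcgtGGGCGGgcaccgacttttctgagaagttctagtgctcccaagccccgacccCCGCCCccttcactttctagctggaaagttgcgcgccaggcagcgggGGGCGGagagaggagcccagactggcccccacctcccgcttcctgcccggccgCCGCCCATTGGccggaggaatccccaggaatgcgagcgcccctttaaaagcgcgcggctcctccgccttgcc
COL5A1: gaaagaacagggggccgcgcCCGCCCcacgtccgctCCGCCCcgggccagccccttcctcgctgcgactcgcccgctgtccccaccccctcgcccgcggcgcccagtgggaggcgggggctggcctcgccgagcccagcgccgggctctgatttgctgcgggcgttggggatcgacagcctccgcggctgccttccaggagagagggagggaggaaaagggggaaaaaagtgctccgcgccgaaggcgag
FN1: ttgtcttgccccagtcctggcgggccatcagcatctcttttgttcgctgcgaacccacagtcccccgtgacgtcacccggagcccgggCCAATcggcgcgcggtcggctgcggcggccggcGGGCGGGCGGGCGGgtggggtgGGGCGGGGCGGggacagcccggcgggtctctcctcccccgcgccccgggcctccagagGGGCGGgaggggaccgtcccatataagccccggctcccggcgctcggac
LAMA5: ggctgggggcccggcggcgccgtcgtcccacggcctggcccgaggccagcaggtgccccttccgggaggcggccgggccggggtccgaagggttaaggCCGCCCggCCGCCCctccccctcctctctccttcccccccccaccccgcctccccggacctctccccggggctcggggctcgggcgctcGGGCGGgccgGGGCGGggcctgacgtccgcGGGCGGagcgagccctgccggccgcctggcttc
The TNC window had 54.8% G and C and 1 match to GGGCGG. THBS1 (69.6%), COL5A1 (74%), FN1 (76.4%) and LAMA5 (82.8%) had 4, 2, 6 and 5 matches, of which those of FN1 overlap in runs. Of the matrix genes that reached FPKM 1, 26 of 31 had a window. GGGCGG stood in 19 of those 26 (73.1%) and in 42.6% of all 35116 windows of this length. The median share of G and C was 69.6% against 58%. Of matrix genes at any level, 51 had a window and 32 of these (62.7%) held GGGCGG. The 35116 windows were taken whole, whereas the 26 are first windows of genes that reached FPKM 1, so the sets are unlike. CCAAT stood in 6 of 26 (23.1%, against 32%) and TATAAA in 5 of 26 (19.2%, against 10.7%). TGACTCA stood in 1 of 26 (3.85%, against 4.2%) and CACGTG in 0 of 26 (against 6.34%). Matches are letters only and say nothing of binding in these cells.

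Tenascin-C is a large glycoprotein that is deposited in wounds and tumours. TNC (NCBI Gene ID 3371, chromosome 9 from 117781854 to 117880536 on the minus strand in hg19, the build of the files) had 0.51, 4.10, 5.20, 4.36, 1.09 and 7.63 FPKM. DMSO 24 h and the library labelled 100 nM 48 h were low, and the other 4 lay at 4.10 or above. At 24 h TNC was 8.04-fold higher at 100 nM and 10.2-fold higher at 200 nM than in DMSO by the FPKM ratio, or 1.76 and 2.04 on the log2(FPKM + 1) scale. At 48 h it fell by 1.36 at 100 nM, while the difference at 200 nM was 0.69 and did not reach 2-fold. In DMSO it was 1.83 higher at 48 h than at 24 h. The lowest value stood for about 74 reads and the highest for about 950. Against the DMSO library of the other time, the difference at 100 nM turned to -0.07 at 24 h and to 0.47 at 48 h, and that at 200 nM 24 h was 0.21.

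Thrombospondin-1 is a matricellular protein that binds the receptor CD47 and activates latent transforming growth factor beta. THBS1 (Gene ID 7057, chromosome 15 from 39873280 to 39891119, plus strand, hg19) had 12.4, 28.2, 44.9, 18.8, 11.1 and 32.9 FPKM. It increased with dose at 24 h, by 1.13 and 1.78 on the log2 scale or 2.28-fold and 3.62-fold by the FPKM ratio, and both passed 2-fold. At 48 h the differences were -0.71 at 100 nM and 0.78 at 200 nM, neither of them called. Both 200 nM libraries were above every other library. With DMSO 48 h as the reference, the difference at 100 nM 24 h was 0.56 and no longer called. That at 200 nM 24 h was 1.21 and still called. Its relative THBS2, which shares the same domain plan, varied little, with 5.39, 5.62, 4.76, 6.39, 5.85 and 6.69 FPKM and differences from -0.15 to 0.21 in the 5 comparisons.

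Fibronectin separated the libraries by time. FN1 (Gene ID 2335, chromosome 2 from 216225163 to 216300793, minus strand, hg19) had 39.7, 52.9, 55.2, 104, 92.4 and 119.7 FPKM. All 3 libraries of 48 h lay above all 3 of 24 h, without overlap. This was not particular to FN1. The times were also apart for LAMA3, LAMA5, LAMB1, LAMB2, LAMC1, HSPG2, THBS2, SPARC and COL6A1, among others. How many of all genes separate in this way was not counted. Between the DMSO libraries FN1 was 2.63-fold higher at 48 h, a log2 difference of 1.37. Against DMSO of the same time the differences at 24 h were 0.41 and 0.46, and those at 48 h were -0.17 and 0.20. SPARC, a small collagen-binding matricellular protein, had 0.44, 0.67, 0.74, 1.54, 0.81 and 1.97 FPKM, from about 31 to 118 reads, and a DMSO time difference of 0.82 that was not called. Of the 5 adhesive and matricellular genes, 4 were tested at 24 h with medians of 0.77 and 1.12 at 100 nM and 200 nM, and 5 at 48 h with medians of -0.49 and 0.23.

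**Figure D3:**
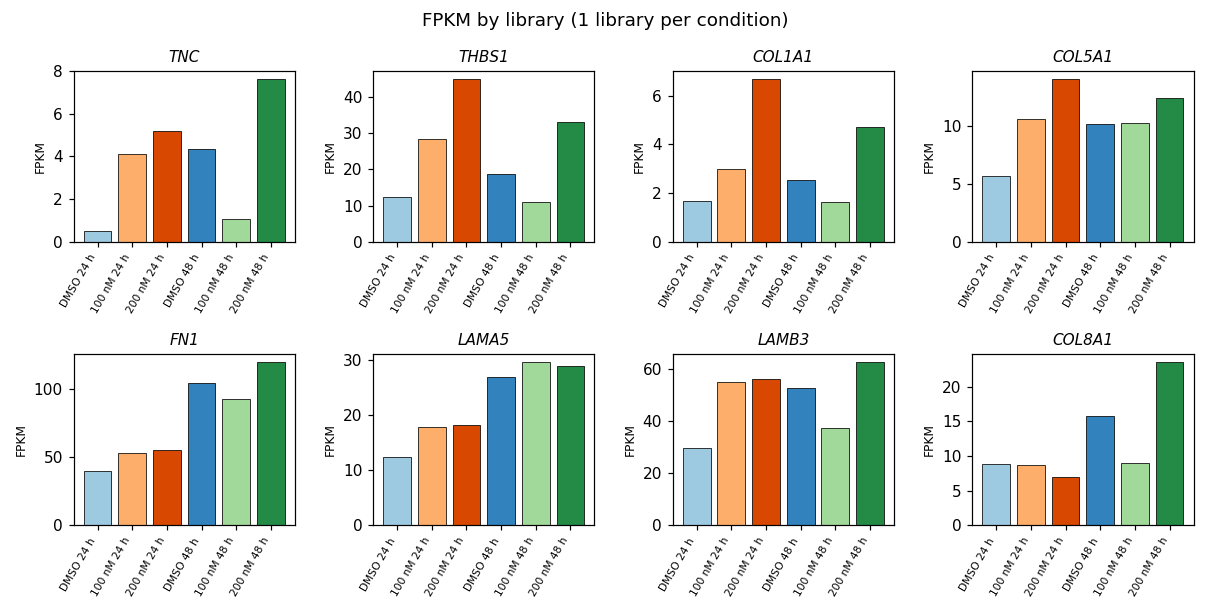
FPKM in each of the 6 libraries (bars from 0, 1 library per condition, no error bar possible) for 6 called genes, LAMB3 and COL8A1. TNC is at 0.51 in DMSO 24 h and 1.09 at 100 nM 48 h against 4.10 to 7.63 elsewhere, whereas FN1 and LAMA5 are higher in every 48 h library than in every 24 h library.

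Laminins were the largest group by level, with summed FPKM of 177, 217, 200.5, 261, 254 and 275. Of 12 chains, 7 had an FPKM of at least 1. The other 5 stayed at or below 0.28. In the DMSO comparison all 7 expressed chains were above 0, with a median of 0.81. Against DMSO of the same time no laminin chain was called in any of the 4 comparisons, where the medians lay between 0.04 and 0.22.

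LAMA3 and LAMB3 encode an alpha and a beta chain of a laminin that anchors epithelial cells. LAMB3 (Gene ID 3914, chromosome 1 from 209788215 to 209825820, minus strand, hg19) had 29.7, 54.9, 56.4, 52.7, 37.3 and 62.7 FPKM. DMSO 24 h and the library labelled 100 nM 48 h were again the lowest, and the differences were 0.86 and 0.90 at 24 h, under 2-fold. LAMA3 behaved otherwise, with 10.6, 12.5, 10.5, 19.5, 20.0 and 19.7 FPKM. It split by time, with 24 h libraries at or below 12.5 and 48 h libraries at or above 19.5. The partners therefore did not keep 1 ratio, and LAMB3 to LAMA3 ranged from 1.86 to 5.39.

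LAMA5, LAMB1 and LAMC1 form the main laminin of many adult basement membranes. LAMA5 (Gene ID 3911, chromosome 20 from 60884116 to 60942368, minus strand, hg19) had 12.3, 17.8, 18.2, 26.9, 29.6 and 28.8 FPKM. As with FN1, LAMB1 and LAMC1, the times did not overlap, and DMSO 48 h was 2.18-fold above DMSO 24 h, a log2 difference of 1.06. LAMB1 had 30.4, 28.6, 20.1, 37.7, 38.3 and 34.1 FPKM. It was lowest at 200 nM 24 h, with a difference of -0.57 that was not called. LAMC1 had 52.9, 58.8, 51.4, 65.4, 70.8 and 67.3 FPKM and stayed within 0.15 of DMSO of the same time in all 4 comparisons. LAMC1 to LAMA5 ranged from 2.34 to 4.29. LAMB2, the beta chain of neuromuscular and kidney laminins, had 35.7, 35.1, 37.1, 47.9, 51.0 and 52.8 FPKM, also without overlap of the times.

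Among basement membrane collagens, COL4A1 and COL4A2 encode the chains of the common collagen IV trimer and lie head to head on chromosome 13 (in hg19 from 110801305 to 110959504 on the minus strand and from 110959631 to 111165374 on the plus strand). The DNA between their starts is shown because it lies upstream of both genes, as 126 bases of RefSeq GRCh38.p14 at chr13:110307158-110307283 on the plus strand, with capitals as above.
COL4A1 and COL4A2: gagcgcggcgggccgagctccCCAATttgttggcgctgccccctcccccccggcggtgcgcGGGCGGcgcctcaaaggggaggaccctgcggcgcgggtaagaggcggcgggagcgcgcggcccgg
It had 80.2% G and C, with 1 match to GGGCGG and 1 to CCAAT. COL4A1 had 7.63, 10.7, 9.41, 10.7, 8.75 and 12.4 FPKM. COL4A2 had 24.1, 29.1, 27.6, 30.1, 26.1 and 29.2 FPKM. Neither was called, and COL4A2 stood 2.36 to 3.15 times above COL4A1 in every library. Chains of the more restricted collagen IV trimers were low. COL4A4 had 0.28, 0.83, 0.89, 0.88, 0.40 and 1.16 FPKM, about 53 to 190 reads, and was again lowest in DMSO 24 h and in the library labelled 100 nM 48 h. COL4A5 ranged from 0.95 to 1.65, COL4A3 from 0.01 to 0.15 and COL4A6 from 0.04 to 0.33.

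**Figure D4:**
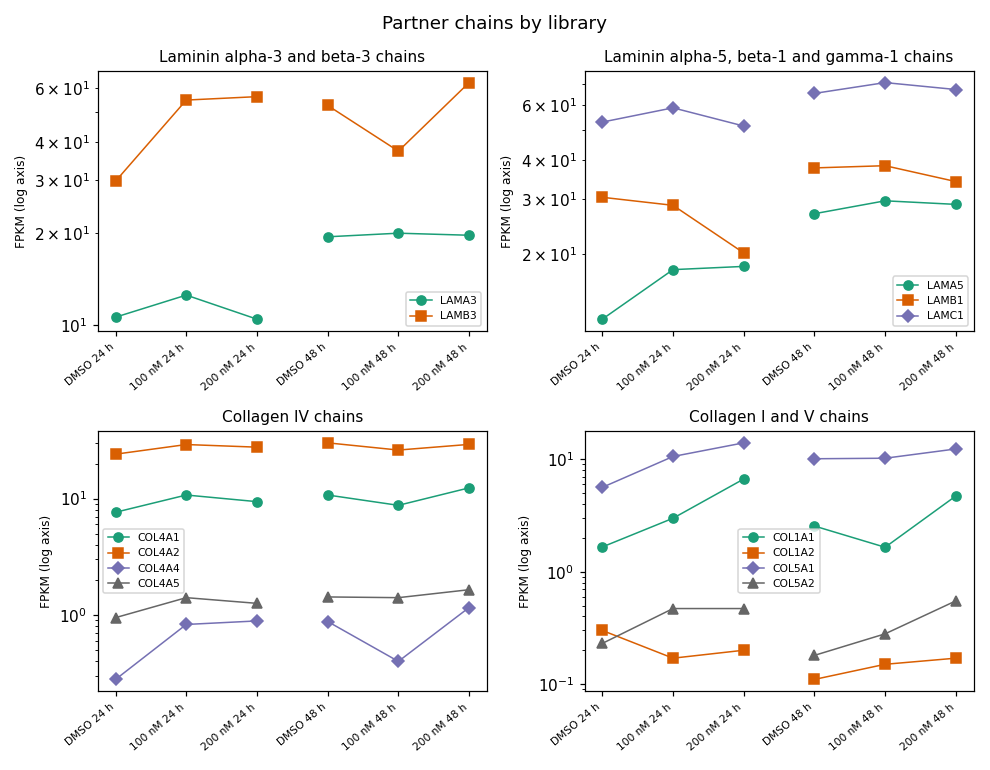
FPKM (log axis) by library for related laminin and collagen chains, not all of which assemble together, with lines joining the libraries of each time. LAMB3 dips at 100 nM 48 h while LAMA3 stays at 20.0, and COL4A1 and COL4A2 keep a ratio of 2.36 to 3.15.

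Basement membrane linkers were expressed as proteoglycans but hardly as nidogens. AGRN, a heparan sulfate proteoglycan that clusters receptors at the neuromuscular junction, had 30.2, 36.5, 40.9, 39.0, 41.5 and 43.3 FPKM. HSPG2, which encodes perlecan, had 11.4, 13.98, 13.8, 16.8, 16.5 and 18.03 FPKM. Neither was called, with the largest AGRN difference at 0.43 and the largest HSPG2 difference at 0.52. NID1 and NID2, whose products bridge laminin and collagen IV, stayed at or below 0.07 and 0.17 FPKM.

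Fibrillar collagens form the load-bearing fibrils of connective tissue, and 3 of 11 had an FPKM of at least 1. COL1A1 (Gene ID 1277, chromosome 17 from 48261457 to 48279000, minus strand, hg19) had 1.66, 2.99, 6.68, 2.55, 1.65 and 4.72 FPKM. It was 4.02-fold higher at 200 nM 24 h than in DMSO by the FPKM ratio, with a log2 difference of 1.53, and was highest in the 200 nM library at both times. The differences at 100 nM were 0.58 at 24 h and -0.42 at 48 h, and at 200 nM 48 h 0.69, none of them called. With DMSO 48 h as the reference, the difference at 200 nM 24 h was 1.11 and still called. COL1A2, the other chain of the collagen I heterotrimer, had 0.30, 0.17, 0.20, 0.11, 0.15 and 0.17 FPKM, about 11 to 31 reads. Its values did not move with COL1A1, whose ratio to it ranged from 5.53 in DMSO 24 h to 33.4 at 200 nM 24 h.

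COL5A1 encodes the collagen V chain that helps start collagen I fibrils. COL5A1 (Gene ID 1289, chromosome 9 from 137533651 to 137736689, plus strand, hg19) had 5.63, 10.6, 14.02, 10.1, 10.2 and 12.4 FPKM. It was 2.49-fold higher at 200 nM 24 h, a log2 difference of 1.18, with 0.81 at 100 nM 24 h and 0.01 and 0.27 at 48 h. DMSO 24 h was the lowest of the 6 libraries, and with DMSO 48 h as the reference the difference at 200 nM 24 h was 0.43. COL5A2 stayed between 0.18 and 0.55, COL3A1 between 0.05 and 0.33 and COL11A1 at or below 0.03 FPKM. COL11A2, which the files place on an alternative haplotype contig of chromosome 6, ranged from 0.01 to 0.33. Of the listed markers of fibroblasts, the main source of collagen I, PDGFRB moved with COL1A1 in part, and the others were too low to compare. The summed FPKM of PDGFRA, PDGFRB, DCN and FAP (4 of 4 in the files) was 0.44, 1.34, 2.73, 1.34, 1.06 and 2.26, of which PDGFRB gave 0.34 to 2.66, while DCN, PDGFRA and FAP were at or below 0.07 and each was listed at 0 in at least 1 library. Leukocyte markers (3 of 3) summed to 3.18 to 5.37 and endothelial markers (3 of 3) to 0.39 to 2.38. Of the endothelial sum PECAM1 gave 0.38 to 2.33, lowest in DMSO 24 h and highest at 200 nM 48 h, while CDH5 and VWF were at or below 0.03. The likeness of these markers to matrix genes was not calculated, and the part of the markers in these results was not tested.

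Of the remaining collagens, COL13A1, a transmembrane collagen of cell contacts, had 56.1, 64.9, 55.6, 65.7, 67.9 and 58.5 FPKM, with no difference above 0.22 in size. COL8A1, a short-chain network collagen of vessel walls, had 8.82, 8.66, 7.03, 15.7, 8.94 and 23.6 FPKM. DMSO 48 h and 200 nM 48 h were high and the other 4 libraries lay at or below 8.94 FPKM, and its differences at 48 h, -0.75 at 100 nM and 0.55 at 200 nM, were not called. COL6A1 had 6.63, 6.15, 7.94, 8.43, 13.5 and 8.12 FPKM, highest in the library labelled 100 nM 48 h with a difference of 0.62, and its partner COL6A2 had 2.10, 2.49, 3.22, 3.95, 3.67 and 3.45. COL6A3 stayed at or below 0.11. COL9A2, a cartilage collagen, had 2.48, 1.66, 1.05, 2.56, 3.05 and 1.85 FPKM, about 54 to 162 reads, and differed from DMSO at 200 nM by -0.76 at 24 h and -0.32 at 48 h, neither called. Its partner COL9A3 ranged from 0.20 to 0.89, and COL8A2, the partner of COL8A1, from 0.09 to 0.35. With a pseudocount of 0.1 FPKM, COL9A2 was called lower at 200 nM 24 h, with a difference of -1.17.

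COL12A1, which coats collagen fibrils, ranged from 11.8 to 16.4 FPKM and COL18A1, the source of endostatin, from 13.4 to 18.5. FBN1, the fibrillin of elastic microfibrils, ranged from 5.74 to 7.78, and FBN2 stayed at or below 0.04. COL7A1 of the anchoring fibrils ranged from 0.86 to 1.39, COL17A1 of hemidesmosomes from 0.69 to 1.34 and COL27A1 from 1.11 to 1.64. None of these was called. The interstitial proteoglycans were near the detection limit, with BGN at or below 0.16, LUM at or below 0.05 and VCAN at or below 0.22 FPKM. Of the 36 genes below 1, 18 stayed below 0.1 in every library, and among all 67 genes 16 were listed at 0 in at least 1 library.

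**Figure D5:**
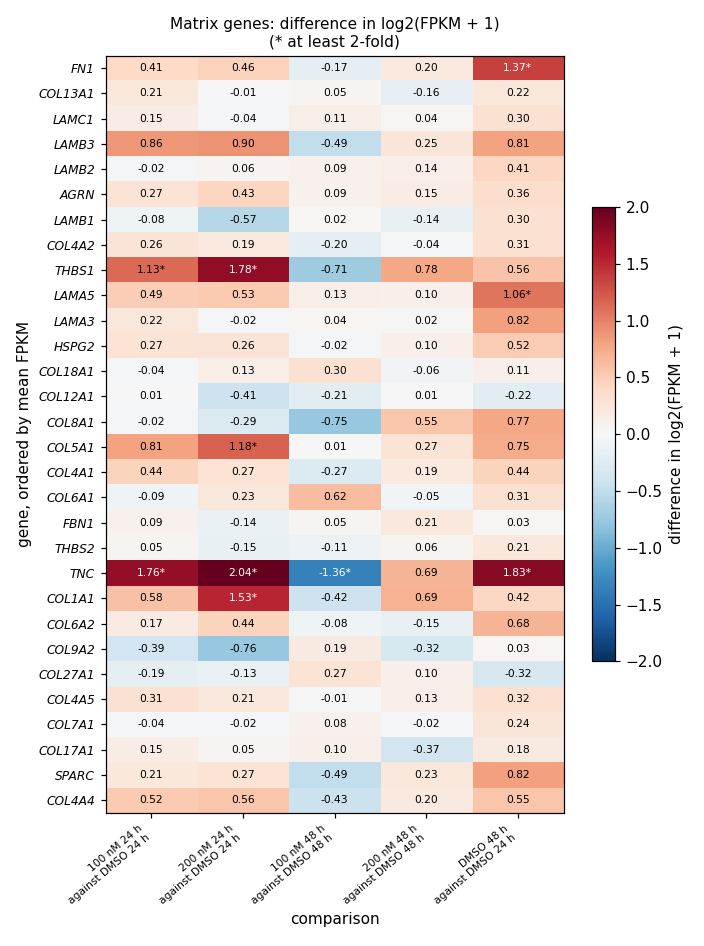
Difference in log2(FPKM + 1) of 30 matrix genes that reached FPKM 1 (rows, by mean FPKM) in 5 comparisons (columns), with asterisks at 2-fold or more. Only TNC and THBS1 carry an asterisk at both doses of 24 h, and the DMSO column is above 0 in nearly every row.

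The likeness of patterns was described by the Pearson correlation of log2(FPKM + 1) over the 6 libraries, among the 31 genes, for the 3 with the widest range. TNC, with a range of 2.51, was most like COL4A4 (r = 0.998), LAMB3 (0.99) and COL4A1 (0.904). THBS1, with a range of 1.92, was most like COL1A1 (0.967), TNC (0.866) and LAMB3 (0.853). COL8A1, with a range of 1.61, was most like SPARC (0.924), THBS2 (0.902) and FN1 (0.78). These are the 3 highest of 30 for each gene, over 6 points that share their libraries, and are a description only.

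Collagen chains are hydroxylated, folded, exported and crosslinked by dedicated enzymes, and 27 genes of this machinery were listed and found in the files. At 24 h, 1 of 24 tested was higher and 0 were lower at 100 nM, where 1.35% and 0.131% of all genes were, and 2 were higher and 1 lower at 200 nM, where 4.49% and 1.48% of all genes were. At 48 h, 0 of 23 were called at 100 nM (0.0608% of all genes higher, 0.408% lower), and 1 of 24 was higher and 0 were lower at 200 nM (0.206% and 0.06%). Between the DMSO libraries 2 of 23 were higher and 0 lower (2.49% and 0.131%). The medians were 0.04, 0.15, 0.07 and 0.13 in the treated comparisons and 0.17 between the DMSO libraries. LOXL4, a lysyl oxidase that crosslinks collagen, had 3.32, 12.5, 21.2, 20.6, 10.4 and 47.5 FPKM. Its level was higher by 1.64 and 2.36 at 24 h, by 1.17 at 200 nM 48 h and by 2.32 between the DMSO libraries, with -0.93 at 100 nM 48 h. SERPINH1, whose product HSP47 is the chaperone of collagen trimers in the endoplasmic reticulum, had 61.5, 33.5, 13.3, 34.7, 45 and 32.3 FPKM. It fell by 2.13 at 200 nM 24 h, where COL1A1 and COL5A1 were highest, and differed by -0.86 at 100 nM 24 h and by 0.36 and -0.10 at 48 h. DMSO 24 h was its highest library, and the difference between the DMSO libraries was -0.81, not called. A link of SERPINH1 to COL1A1 or COL5A1 was not tested.

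PLOD2, a lysyl hydroxylase that prepares collagen for crosslinking, had 40.9, 55.3, 91.0, 65.2, 54.3 and 103.7 FPKM and was higher by 1.14 at 200 nM 24 h. LOX, the founding lysyl oxidase, had 15.6, 16.4, 11.2, 36.1, 33.6 and 36.7 FPKM, with the times apart as for FN1, and a DMSO time difference of 1.16, which was called. The prolyl 3-hydroxylase gene P3H2 had 32.6, 62.3, 65.1, 58.2, 39.1 and 86.9 FPKM, with differences of 0.91 and 0.98 at 24 h that were not called. By mean level the machinery was led by P4HB (271), a subunit of prolyl 4-hydroxylase, PPIB (184), LOXL2 (129), PLOD2 (68.4), COLGALT1 (59.5) and P3H2 (57.3).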

How the data were processed

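RNA from 6 MDA-MB-231 cultures, 1 per condition, was sequenced by a company after mRNA enrichment or rRNA depletion. The deposited values are FPKM per gene, which the authors made and rounded to 2 decimals. The submitters' processing notes name Bowtie2, RSEM and hg19 without versions. Whether counting used strand is not given in the sources used here. The 67 genes and the lists were chosen with earlier results of these data known. Symbols came from the RefSeq table of GRCh38.p14 by NCBI Gene ID, which held 16585 genes and lacked 38.

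Differences were calculated in log2(FPKM + 1), with a pseudocount of 1, between each PCI-24781 library and DMSO of the same time and between the DMSO libraries. A gene was tested when at least 1 of the libraries compared reached FPKM 1, and was called at a difference of 2-fold or more. No count test was run on FPKM. A fit of dose and time over the 6 libraries with limma 3.58.1 (R 4.3.3), with moderated tests and Benjamini-Hochberg adjustment, was added after seeing the data. Named genes are those called, the 12 with the highest mean, partner chains and the 14 listed by symbol, and from the collagen machinery those called and the 6 highest. Other members are given by range and count, and 1 gene counted here is not reported by name or drawn. Depth was inferred from the steps of low values of 299 to 435 genes with 1 transcript of 500 to 2000 bases in GENCODE 29, with 50 bases taken off the length. It is approximate, and so are reads per gene. Scripts were checked on simulated data. Alternatives were a 1.5-fold threshold, a pseudocount of 0.1, FPKM 1 reached in both libraries, no filter, and scaling to TPM or by median-of-ratios factors. Calculations used pandas 2.3.3 and numpy 2.4.6 under Python 3.11.15, and plots matplotlib 3.10.9.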

Additional observations from a re-analysis of the deposited data

Results flagged for a closer look

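At 100 nM, TNC and THBS1 differed from DMSO in opposite directions at the 2 times, and the difference between times was not tested, since each condition has 1 library. The log2 difference of TNC from DMSO of the same time was 1.76 at 24 h and -1.36 at 48 h. That of THBS1 was 1.13 at 24 h and -0.71 at 48 h. Matrix genes not called at 100 nM, LAMB3, COL1A1, FN1 and COL4A1 among them, also changed sign. Others, such as LAMA5 and LAMC1, were above DMSO at both times. An exchange of the labels DMSO 48 h and 100 nM 48 h cannot be told apart from a response of the cells here.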

How the results depend on the processing

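Each condition has 1 library and the labels give no replicate numbers to pair, while the additive fit pairs libraries by time and by dose. Median-of-ratios factors (0.978 to 1.023) and TPM moved no count of called matrix genes by over 1.5 times. Of 155 single differences, 150 kept their direction with those factors, the other 5 being under 0.1 in size, and 1 call was lost. With TPM all 155 kept their direction and SPARC was called between the DMSO libraries (1.17). With a pseudocount of 0.1 all 155 did so, SPARC was also called (1.60), and 1 gene (COL9A2) was lower at 200 nM 24 h. Requiring FPKM 1 in both libraries left 1 higher at 100 nM 24 h, since TNC was not tested there. At 1.5-fold, 6 were higher at 100 nM 24 h, and 5 were higher and 1 lower at 200 nM 24 h. At 48 h, 1 was higher and 4 were lower at 100 nM, and 3 were higher at 200 nM. Between the DMSO libraries 10 were higher. The shares of all genes at 1.5-fold were not calculated, so these counts have no background. Over all 67 genes the medians were 0.0489 at 100 nM 24 h, 0.0422 at 200 nM 24 h and 0.0665 between the DMSO libraries. With the DMSO library of the other time as reference, an alternative chosen after seeing the data, 0 genes were higher at 100 nM 24 h (median -0.15), 2 were higher and 1 (COL8A1, -1.06) lower at 200 nM 24 h (median -0.21), 2 were higher and 0 lower at 100 nM 48 h (median 0.32), and 9 were higher at 200 nM 48 h (median 0.54). Shares and medians of all genes were not calculated for this reference, so these counts and medians have no background. Of 124 single differences, 55 changed direction under this reference. TNC turned to -0.0717 at 100 nM 24 h and to 0.47 at 100 nM 48 h. The cause was not tested. Depth limits the low genes most, and reads per value there depend on transcript length.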
